A study of Mus musculus with 16 samples.

Results

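Dpp4, Pi16, Ly6c1, Ly6a, Cd55, Limch1, Efhd1, Ackr2, Akr1c18 and Cmah are 10 genes picked as high in fibro-inflammatory progenitors (FIPs). FIPs are a Pdgfrb-expressing stromal population of mouse fat, whose interstitial counterpart in adult tissue is known by Dpp4 and Pi16. These genes are 10 of the 27179 rows of the normalized count table, found by symbol. They were chosen by their high measured level in FIPs, so their FIP values beside other populations are a description and carry no test. Dpp4 was higher still in mesothelial-like cells, at 8805 ± 405 normalized counts against 2053 ± 275 in FIPs (mean ± SD, n = 4 each). All 10 passed the filter on low values (at least 10 normalized counts in at least 4 libraries), as did 15024 rows in all. The libraries came from C57BL/6 mice at postnatal day 7, from cells of the epididymal white fat that were sorted as Pdgfrb-positive and then split into 4 sub-populations, with no treatment or gene alteration in the labels. The groups are adipocyte precursor cells (APCs), FIPs, mesothelial-like cells (MLCs) and smooth muscle cells (SMCs), with 4 libraries each, 16 in all. The labels do not say whether the 4 libraries of a group came from separate animals or sorts, and a p-value here speaks only of how far the libraries of a group lie apart, which may be technical in origin.

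Interstitial progenitors lie in the fibrous sheets between fat lobules and are known as an early, multipotent stage of the adipose lineage, while adipocyte precursors are further along the path to fat cells. The genes studied here work at different places in the cell. Dpp4 is a membrane peptidase, Pi16 a surface protein of the cysteine-rich secretory (CAP) family, Ly6c1 and Ly6a (Sca-1) are small antigens held to the membrane by a lipid anchor, Cd55 protects cells from complement, and Ackr2 is a receptor that removes inflammatory CC chemokines. Limch1 activates non-muscle myosin, Efhd1 is a calcium-binding protein of mitochondria, Akr1c18 is a steroid dehydrogenase that inactivates progesterone, and Cmah hydroxylates the activated form of sialic acid.

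Recovered reads ranged from 9204654 to 27528365 per library (median 21569381), and the shallowest were SMCs replicate 3 and APCs replicate 4. The labelled populations were set beside marker lists. These were drawn up with earlier results of these data known, so they describe the labels and do not test them. Mfap5, another interstitial gene, averaged 25608 ± 1751 normalized counts in FIPs against 8108 ± 812 in SMCs, the next population (mean ± SD, n = 4 each), but of the 25 genes of that list Il33 was highest in SMCs and Fap in APCs. MLCs carried the mesothelial list, whose 18 genes summed to 207389 to 217273 normalized counts there, 19149.5 to 28999.9 in SMCs, 6048 to 6578 in APCs and 4555 to 5251 in FIPs. Although its sum was lower in FIPs than in APCs, 11 of the 18 were called higher in FIPs and 1 lower (limma, adjusted p under 0.05 and at least 2-fold, where 5.2% and 5.22% of all tested genes were called), 6 and 1 by edgeR and 7 and 1 by DESeq2. Those called higher were low (Upk3b 81.0 ± 14.3 in FIPs and 32.7 ± 10.5 in APCs), while Wt1, the most abundant in both, read 2879.8 ± 208 and 3996 ± 179; the part of mesothelial RNA in the FIP values of the 10 genes was not tested. Acta2, smooth muscle actin, read 2885 to 5859 in SMCs, but the 12 contractile genes summed to 14902 to 20120.4 there and reached 14921 in APCs replicate 4, where Acta2 was 2388 against 156 to 221 in the other APC libraries. Myh11, smooth muscle myosin, did not separate SMCs from MLCs, where it read 1193 to 1377, inside the SMC range of 681 to 1633. Pdgfrb itself, the receptor used for the sort, was 419 to 483 in MLCs and 2678 or more in every other library. The 15 immune genes summed to 2398 to 2955 in MLCs, 862 to 1041 in SMCs, 552 to 1321 in APCs and 536 to 865 in FIPs. Csf1r, a macrophage receptor, averaged 2211 ± 191 in MLCs, 258 ± 65.0 in SMCs and 27.2 ± 6.27 in FIPs, and Cd68 was between 392 and 734 on average in the 4 populations, while Ptprc, the pan-leukocyte antigen, was at most 11.4 in any library and Cd3e was 0 in all 4 FIP libraries. In sorted bulk RNA a lower level can mean fewer cells with a gene or less RNA in each, and these cannot be told apart.

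Of the 10 genes, 9 had every FIP library above every library of the other populations, the exception being Dpp4, which was highest in MLCs. Among all tested genes 8.26% had that property, and since it is what chose the genes, nothing is read from the count. FIPs held between 60.4% (Cd55) and 95.4% (Akr1c18) of the sum of the 4 population means for those 9 genes, and 18.2% for Dpp4. Pi16, Ly6c1, Ly6a, Ackr2 and Akr1c18 were next highest in SMCs, Cd55 and Efhd1 in APCs, and Limch1 and Cmah in MLCs. The genes present in MLCs at 10% or more of the FIP level were Dpp4, Limch1 and Cmah. The coefficient of variation between libraries ran from 3.73% to 14.1% in FIPs.

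**Figure D1:**
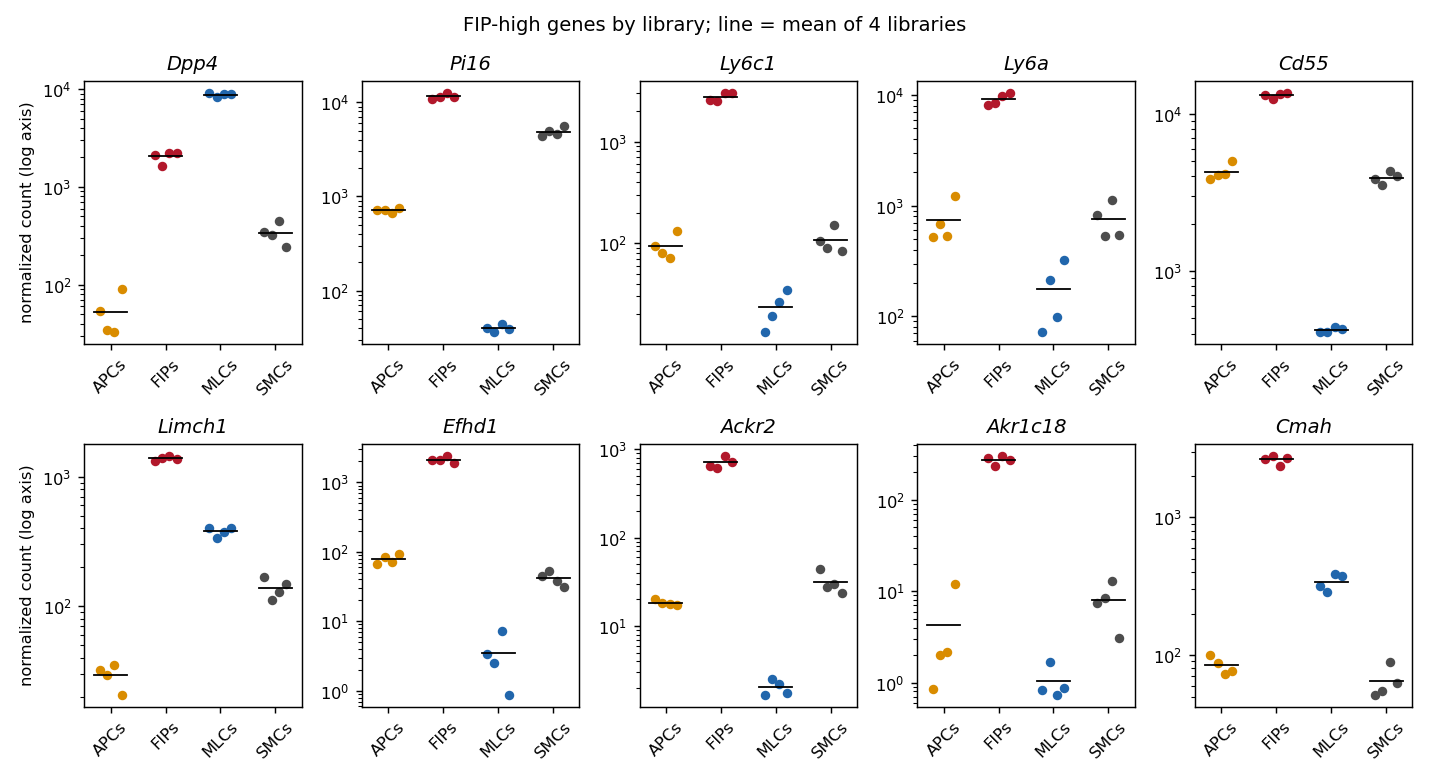
Normalized count (log axis) of each of the 10 genes in the 16 libraries, grouped as APCs, FIPs, MLCs and SMCs, with 4 points per population in the order of replicates 1 to 4 and a line at the mean. The FIP points lie above all others for 9 genes, while the MLC points lie above the FIP points for Dpp4.

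**Figure D2:**
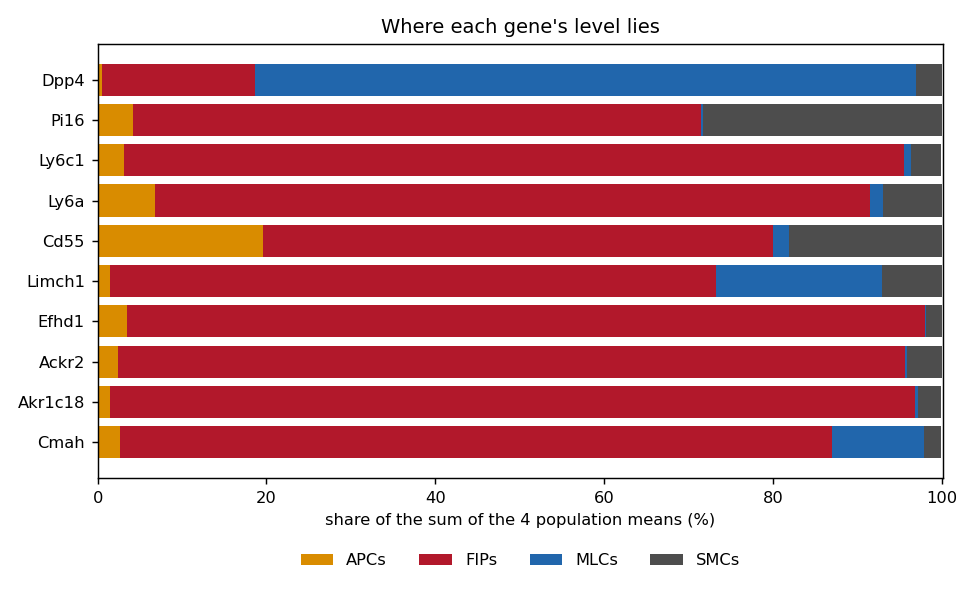
Share (%) that each population's mean takes of the sum of the 4 population means, for each gene. FIPs take 95.4% for Akr1c18 and 60.4% for Cd55, MLCs take 78.3% for Dpp4, and SMCs take 28.3% for Pi16.

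Dpp4, also called CD26, cleaves dipeptides from chemokines and incretins (Entrez gene 13482, GRCm38 chromosome 2, 62330073 to 62412315, protein coding). In replicates 1 to 4, the order used throughout, Dpp4 read 2139.9, 1645, 2219 and 2209 normalized counts in FIPs and 9132, 8215, 8969.6 and 8905 in MLCs. SMC values of Dpp4 were 345, 321, 451 and 241, and APC values 53.3, 34.2, 32.9 and 89.9. All 4 populations were separate: MLCs lay 4.29-fold above FIPs, FIPs 6.05-fold above SMCs, and SMCs 6.46-fold above APCs on the ratio of means. The SMC libraries ranked for Dpp4 as they did for the summed mesothelial markers, which read 25045, 22715, 28999.9 and 19149.5 in replicates 1 to 4; the part of that in the Dpp4 values was not tested. FIPs replicate 2 lay below the other 3 FIP libraries and still above every SMC library.

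Of 14 tested genes of the Dpp4 family and its partners, 3 were called higher in FIPs than in APCs and 1 lower (limma, Benjamini-Hochberg adjusted p under 0.05 and at least 2-fold), where 5.2% of all tested genes were higher and 5.22% lower. Their median log2 difference was 0.03, against 0.01 for all genes. The 3 were Fn1, coding for fibronectin, with 560212 ± 23012 in FIPs and 130263 ± 23390.1 in APCs, and Dpp6 and Adora2b, which were named after their values were seen. Adora2b, an adenosine receptor, read 81.0 ± 10.8 in FIPs and 10.7 ± 2.93 in APCs. The gene lower in FIPs was Cav1, coding for the caveolar coat protein that can bind Dpp4, at 319 ± 26.5 in FIPs, 1974 ± 288 in APCs, 4154 ± 781 in SMCs and 45808 ± 1934 in MLCs. Fap, the closest relative of Dpp4 as a peptidase and near it on chromosome 2, read 1757 ± 156 in FIPs, 1947 ± 210.0 in APCs, 831 ± 65.2 in SMCs and 159 ± 15.9 in MLCs. Fap was lowest where Dpp4 was highest, -2.38 ± 0.089 for MLCs minus SMCs (log2 ± SE, limma adjusted p = 1.35e-14). Dpp8 and Dpp9, cytosolic relatives, differed little: Dpp8 stayed between 2173 and 2629.6 and Dpp9 between 1128 and 1711 on average, and neither reached 2-fold in the 4 comparisons. Cxcl12, a chemokine that Dpp4 cleaves, averaged 9338 ± 1198 normalized counts in APCs against 5720.4 ± 502 in FIPs, with 271 ± 48.7 in the MLC libraries, a FIP minus MLC log2 difference of 4.41 ± 0.112 (limma adjusted p = 1.90e-17).

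Pi16 is a peptidase inhibitor-like surface protein (Entrez gene 74116, chromosome 17, 29318796 to 29328903). Pi16 read 10929, 11465, 12530.1 and 11368 normalized counts in FIPs, and 4412, 4991, 4546 and 5536 in SMCs. APC values of Pi16 were 718, 716, 665 and 761, and MLC values 40.2, 36.4, 44.3 and 38.7. The populations did not overlap. SMCs held 42.1% of the FIP mean, APCs 6.18% and MLCs 0.345%, so the sort labelled smooth muscle carried more Pi16 than the adipocyte precursors. Pdgfra, a fibroblast and progenitor receptor, was as high in SMCs (23838 ± 1968) as in FIPs (22966 ± 975), and its part in the Pi16 level of SMCs was not tested. Among 4 tested relatives of the CAP family, Crispld1 and Crisp1 were called higher and Crispld2 lower in FIPs than in APCs (all tested genes: 5.2% higher and 5.22% lower). Crisp1 read 12.0 ± 20.4 in FIPs and was at 0 in all 4 APC libraries, a mean below its SD, and it averaged 24.5 ± 22.4 in MLCs. edgeR and DESeq2 called 1 of the 4 higher, and so did limma without any 1 of the 4 APC libraries. Crispld1 and Crispld2, secreted members, were highest in SMCs (1791 ± 456 and 1822 ± 172), while Glipr2, a Golgi member, was highest in FIPs (3083 ± 93.2, 2017 ± 144 in APCs, log2 0.61 ± 0.091, under 2-fold).

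Ly6c1 and Ly6a lie near each other on chromosome 15 (Entrez genes 17067 and 110454, 75044018 to 75048920 and 74994877 to 74998031). Ly6c1 read 2577, 2483, 3007 and 2973 normalized counts in FIPs and 13.4, 19.5, 26.6 and 34.3 in MLCs. SMC values of Ly6c1 were 106, 90.7, 149.5 and 84.8, and APC values 93.8, 79.6, 71.5 and 133. Ly6a, the Sca-1 antigen of stem and progenitor cells, read 8204, 8574, 9769 and 10477 in FIPs, and 72.1, 213, 98.8 and 326 in MLCs. SMC values of Ly6a were 826, 535, 1134 and 541, and APC values 518, 683, 533 and 1224. For both genes the SMC and APC ranges overlapped, all MLC libraries lay below them, and the highest APC library was replicate 4. Across MLC libraries Ly6a ranged from 72.1 to 326, a coefficient of variation of 65.5%.

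Ly6c1 has a near-identical copy, Ly6c2, on the same chromosome, so reads from one can be counted for the other. The first 120 coding bases are shown because they are what a read would have to tell apart; capitals mark the 6 bases at which Ly6c2 differs from Ly6c1 (GENCODE M21 annotation on GRCm38, 5′ to 3′).
Ly6c1: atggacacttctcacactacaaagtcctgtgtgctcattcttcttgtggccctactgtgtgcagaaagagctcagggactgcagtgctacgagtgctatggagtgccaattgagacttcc
Ly6c2: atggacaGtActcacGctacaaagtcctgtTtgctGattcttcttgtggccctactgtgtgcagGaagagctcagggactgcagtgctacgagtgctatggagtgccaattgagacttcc

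Over the aligned coding sequence the copies were 93.8% identical, and 41.3% of the 50-base windows of Ly6c1 also occur in Ly6c2. In FIPs Ly6c2 read 6.68 to 12.9 normalized counts against 2483 to 3007 for Ly6c1, and elsewhere Ly6c2 was between 0 and 9.48. How reads that match both were treated is not given in the sources used here, so the split between the copies is uncertain. Ly6a and Ly6c1 were 77.3% identical and shared no 50-base window. Ly6a and Ly6i were 86.3% identical and shared 8.78% of windows, and Ly6i read 15.3 to 35.6 in FIPs and at most 6.76 elsewhere. In the list of Ly6 relatives, 2 of 9 tested genes were called higher in FIPs than in APCs (Ly6i and Lypd6) and 2 lower, beside 5.2% and 5.22% of all tested genes, with a median log2 difference of -0.00319. Leaving out FIPs replicate 1, 2 or 3 each left 1 of the higher calls. Ly6e, the most abundant, was highest in MLCs (5776 ± 1886, 3785 ± 347 in FIPs, 2382 ± 555 in APCs, 1487 ± 198 in SMCs). Ly6h, by contrast, was nearly absent from MLCs (4.93 ± 0.476) and at 116 ± 5.45 in APCs.

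Cd55, decay-accelerating factor, dissociates the complement convertases on the cell's own surface (Entrez gene 13136, chromosome 1, 130429798 to 130465009). Cd55 read 13227, 12399, 13244 and 13533 normalized counts in FIPs, and 3845, 4065, 4133 and 5004 in APCs. SMC values of Cd55 were 3845, 3515, 4311 and 3999, and MLC values 412, 410.1, 443 and 426. APCs and SMCs overlapped at 32.5% and 29.9% of the FIP mean, and MLCs lay far below at 3.23%. Its copy Cd55b shares 92.2% of aligned coding bases and 29.5% of 50-base windows, and read 6.35 to 13.9 in FIPs and 4.27 to 19.2 in SMCs. Of 12 tested complement genes, limma called 0 higher in FIPs than in APCs and 1 lower, beside 5.2% and 5.22% of all tested genes. The 1, near that share, was Adgre5 (CD97), a receptor of Cd55 named after its values were seen. At an unadjusted p under 0.05 with no fold limit 4 of the 12 were higher and 2 lower. edgeR and DESeq2 each called 0 higher and 2 lower, and without APCs replicate 4 or FIPs replicate 1 limma called 1 higher. Adgre5 read 174 ± 16.5 in FIPs and 465 ± 63.4 in APCs. C3, the central complement protein, read 93617 ± 2652 in MLCs and 15634 ± 1617 in FIPs, and Cfb, its alternative-pathway partner, 4547 ± 368 and 591 ± 74.4. The population with the least Cd55 held the most C3 and Cfb, with log2 differences of -2.59 ± 0.113 and -2.95 ± 0.128 for FIPs minus MLCs (limma adjusted p = 9.04e-14 and 7.70e-14). Serping1 was between 13134 and 25726 on average.

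Limch1 binds and activates non-muscle myosin IIA (Entrez gene 77569, chromosome 5, 66745889 to 67057159). Limch1 read 1321, 1396, 1452 and 1377 normalized counts in FIPs, and 403, 334, 374 and 399.7 in MLCs. SMC values of Limch1 were 167, 111, 128 and 147, and APC values 32.1, 29.2, 35.0 and 20.8. The populations did not overlap, and MLCs held 27.2% of the FIP mean against 2.11% in APCs. Efhd1 carries EF-hand calcium sites (Entrez gene 98363, chromosome 1, 87264353 to 87310841). Efhd1 read 2065, 2065, 2417 and 1922 in FIPs, and 66.8, 84.6, 70.8 and 91.7 in APCs. SMC values of Efhd1 were 45.3, 52.3, 38.4 and 31.7, and MLC values 3.35, 2.54, 7.38 and 0.880, the latter 18 reads in all. Leaving out MLCs replicate 3, which held 10 of those reads, took the MLC mean from 3.54 to 2.26. An antisense gene, Efhd1os, shares 12.0% of the exon bases of Efhd1, and antisense genes share 3.67% of those of Dpp4, 3.49% of Pi16 and 2.1% of Cd55. The strand setting is not given in the sources used here, so reads of such pairs cannot be told apart. Genes of the myosin and mitochondrial calcium list drawn up for this pair were not called in FIPs against APCs: 0 of 12 tested in each direction by limma, edgeR and DESeq2, with a median log2 difference of 0.47. All tested genes gave 5.2% higher and 5.22% lower by limma, with a median of 0.01. At an unadjusted p under 0.05 in limma with no fold limit, 9 of the 12 were higher and 1 lower. Myh9, the myosin that Limch1 activates, was highest in MLCs (18370.1 ± 358, 5479.8 ± 239 in FIPs and 4996 ± 256 in APCs). Lmo7, a related protein with the same kind of domains, was 22.5 ± 7.32 in FIPs and 2163 ± 68.7 in MLCs. Efhd2, the paralog of Efhd1, was named after its values were seen and read 404 ± 15.9 in FIPs, 249.7 ± 19.0 in APCs and 499.7 ± 33.4 in MLCs, a narrow range beside that of Efhd1.

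Ackr2, formerly D6, internalizes inflammatory CC chemokines without G protein signalling (Entrez gene 59289, chromosome 9, 121898355 to 121911075). Ackr2 read 652, 616, 842 and 723 normalized counts in FIPs, and 44.2, 27.8, 29.9 and 23.5 in SMCs. APC values of Ackr2 were 20.3, 18.1, 17.9 and 17.3, and MLC values 1.68, 2.54, 2.21 and 1.76, which are 10 reads in all. The 4 populations did not overlap, and APCs held 2.60% and SMCs 4.43% of the FIP mean. The atypical receptors Ackr1, Ackr3 and Ackr4 were also highest in FIPs. The 7 tested genes of the Ackr2 list were the receptors Ackr1, Ackr3, Ackr4 and Ccrl2 and the chemokines Ccl2, Ccl7 and Ccl11. Of the 7, 3 were called higher in FIPs than in APCs, all receptors, and none lower. Against MLCs 5 were higher and 1 lower, and against SMCs 6 and 1, where both higher counts include Ccl2, Ccl7 and Ccl11. The median log2 differences were 0.73, 2.09 and 1.71. Ackr3 was not called against MLCs, where it read 2841 ± 144 (FIPs minus MLCs log2 0.94 ± 0.108). Against APCs, edgeR and DESeq2 also called 3 and 0, and 5 and 0 passed an unadjusted p under 0.05 in limma. All tested genes gave 5.2% higher and 5.22% lower in FIPs against APCs, 12.5% and 18.6% against MLCs, and 4.6% and 13.3% against SMCs. The 3 comparisons share the FIP libraries. Ackr1, which binds many chemokines, read 1162 ± 127 in FIPs against 111 ± 10.7 in APCs (log2 3.37 ± 0.151, limma adjusted p = 1.49e-12), and Ackr3, the scavenger of Cxcl12, 5493 ± 792 against 888 ± 107 (log2 2.63 ± 0.108, limma adjusted p = 5.46e-13). Ackr4, named after its values were seen, read 273 ± 24.0 and 79.2 ± 31.3. Among chemokines that Ackr2 can take up, Ccl2 read 6094 ± 1005 in FIPs and 3736 ± 1038 in APCs and Ccl7 5414 ± 315 and 4224 ± 945, neither of them called. Ccl11 (eotaxin) was 2095 ± 346 in FIPs and 2499 ± 511 in APCs against 15.04 ± 3.81 in MLCs. Ccrl2, a related receptor, went the other way: 724 ± 145 in MLCs and 48.6 ± 13.6 in FIPs.

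Akr1c18 codes for 20-alpha-hydroxysteroid dehydrogenase (Entrez gene 105349, chromosome 13, 4132615 to 4150646). Akr1c18 read 287, 238, 306 and 277 normalized counts in FIPs, and 7.37, 8.54, 12.8 and 3.07 in SMCs. APC values of Akr1c18 were 0.845, 2.01, 2.15 and 12.1, and MLC values 0.838, 1.69, 0.738 and 0.880. The FIP level rests on 257 to 320 reads per library, the SMC level on 24 reads, the APC level on 13 and the MLC level on 5 in all. SMCs overlapped APCs, and APCs overlapped MLCs. APCs replicate 4 gave 7 of the 13 APC reads, and without it the APC mean was 1.67 in place of 4.28. Akr1c14, a neighbouring family member with 76.7% identical coding bases and no shared 50-base window, read 683 ± 29.8 in FIPs, 66.0 ± 25.3 in SMCs, 42.3 ± 9.84 in APCs and 15.9 ± 2.43 in MLCs (FIPs minus APCs log2 4.01 ± 0.214, limma adjusted p = 1.71e-11). Akr1c19 was lower, 58.4 ± 4.61 in FIPs and 12.8 ± 5.81 in APCs, while Akr1c6, Akr1c12 and Akr1c13 stayed at 33.9 or less in every library. In the list of aldo-keto reductases and prostaglandin genes, 4 of 13 tested genes were called higher in FIPs than in APCs and 2 lower, with a median log2 difference of 0.11 (all tested genes: 5.2% and 5.22%, median 0.01). The 4 included Ptgs1 and Ptgs2, the cyclooxygenases, which were higher still in MLCs: Ptgs1 read 554 ± 18.9 in FIPs and 2755 ± 164 in MLCs, and Ptgs2 2006 ± 201 and 6215 ± 813. Akr1b3, aldose reductase, was 535 ± 37.1 in FIPs and 575 ± 33.1 in APCs.

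Cmah turns the CMP form of N-acetylneuraminic acid into that of N-glycolylneuraminic acid, the sialic acid that humans lack (Entrez gene 12763, chromosome 13, 24327404 to 24477289). Cmah read 2659, 2807, 2372 and 2707 normalized counts in FIPs, and 318, 287, 389 and 374 in MLCs. APC values of Cmah were 100.6, 87.6, 72.9 and 76.1, and SMC values 51.6, 54.4, 89.7 and 62.3. The FIP libraries stood apart from all others. MLCs, at 13.0% of the FIP mean, lay above APCs and SMCs, which overlapped. Of 14 tested genes of the sialic acid pathway, 1 was called higher in FIPs than in APCs and 1 lower, with a median log2 difference of 0.13, against 5.2% and 5.22% and a median of 0.01 for all tested genes; 1 of 14 is near those shares. The gene that was higher was St6gal1, which adds sialic acid to N-glycans, at 860.4 ± 89.3 in FIPs, 479.7 ± 48.5 in SMCs, 122 ± 22.4 in APCs and 55.9 ± 10.4 in MLCs (FIPs minus APCs log2 2.82 ± 0.141, limma adjusted p = 7.25e-12). St3gal5, the synthase of ganglioside GM3, was lower in FIPs (70.4 ± 8.82) than in APCs (238 ± 19.6) and highest in MLCs (772 ± 51.3). St3gal2, the most abundant transferase of the list, read 4835 ± 339 in FIPs and 2601 ± 45.9 in APCs, under 2-fold. St3gal6 was 1135 ± 10.9 in MLCs and 122 ± 15.2 in FIPs.

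**Figure D3:**
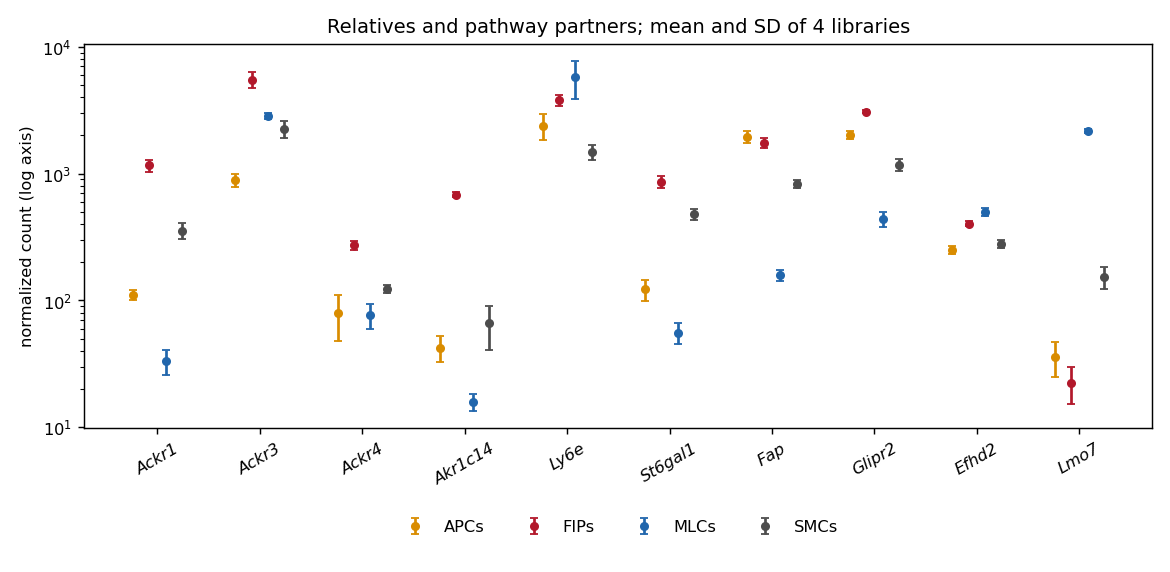
Mean and SD over 4 libraries (normalized count, log axis) of 10 genes related to the FIP-high genes or acting with them, in APCs, FIPs, MLCs and SMCs. Ackr1, Ackr3, Ackr4, Akr1c14, St6gal1 and Glipr2 are highest in FIPs, Ly6e, Efhd2 and Lmo7 in MLCs, and Fap in APCs.

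MLCs against SMCs is the one pair that holds neither FIPs nor APCs, and the contrast between them did not choose the genes. All 10 were called, 3 higher in MLCs and 7 in SMCs (limma, Benjamini-Hochberg adjusted p under 0.05 over 15024 genes and at least 2-fold). Among all tested genes 14.4% were higher in MLCs and 13.5% higher in SMCs. The genes were picked by their level in FIPs with earlier results of these data known, so nothing is read from this count against those shares. MLC and SMC libraries overlapped for none of the 10. The share of all tested genes without such overlap was not computed, so nothing is read from that either. The 7 include Akr1c18, which passed the filter through its FIP libraries. The median log2 difference of the 10 was -2.23, against 0.04 for all tested genes. Dpp4 was higher in MLCs by 4.73 ± 0.23 (log2 ± SE, limma adjusted p = 8.02e-13), Cmah by 2.41 ± 0.149 (3.23e-11) and Limch1 by 1.45 ± 0.142 (2.84e-08), each in 4 of 4 MLC libraries above all SMC libraries. Pi16 fell by 6.89 ± 0.0751 on the log2 scale in MLCs (limma adjusted p = 3.51e-22), the largest difference of the 10, and Cd55 fell by 3.21 ± 0.0725 (6.37e-18). Efhd1 fell by 3.42 ± 0.3 and Ackr2 fell by 3.38 ± 0.207 (limma adjusted p = 5.99e-09 and 2.72e-11), with 18 and 10 reads behind the MLC values, and over the alternatives they ran from -3.85 to -2.13 and from -3.94 to -1.94. Ly6a fell by 2.27 ± 0.364 and Ly6c1 fell by 2.20 ± 0.238 (limma adjusted p = 2.07e-05 and 1.22e-07). Akr1c18 fell by 2.03 ± 0.482 (limma adjusted p = 0.0011), on 5 and 24 reads. It passed the filter through the 4 FIP libraries, since 1 SMC library and no MLC library reached 10, and with a pseudocount of 8 its difference was -0.78, under the fold limit. The interstitial list apart from these genes gave 3 of 25 higher in MLCs and 10 higher in SMCs, with a median of -0.93.

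**Figure D4:**
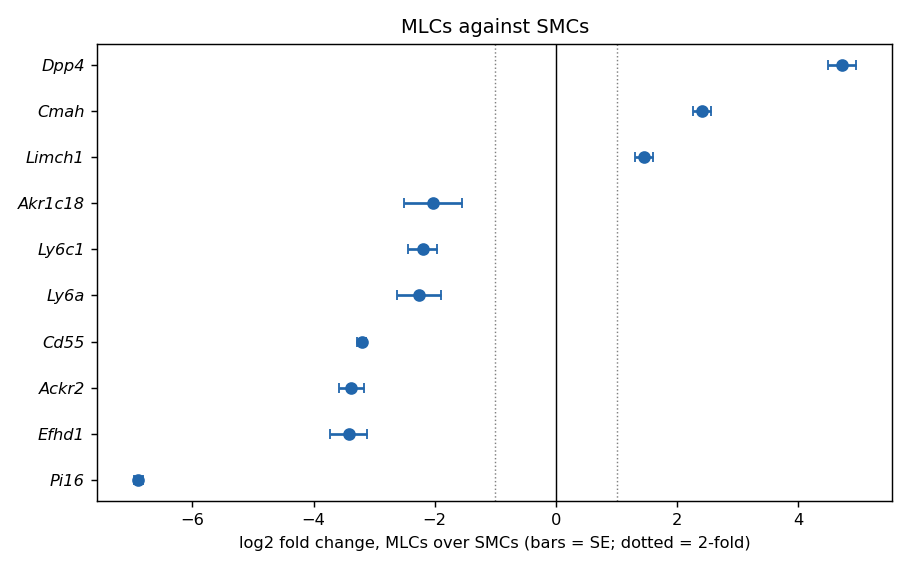
Log2 fold change of each gene between MLCs and SMCs (limma on log2 of the normalized count plus 1; bars are SE; dotted lines mark 2-fold), with positive values higher in MLCs. Dpp4, Cmah and Limch1 lie to the right of 0 and the other 7 genes to the left, with Pi16 the farthest at -6.89.

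Between genes, levels can be compared only per length. Per kilobase of merged exon, the FIP order was Ly6a (7681 ± 874 normalized counts per kb), Cd55 (2699.5), Pi16 (1819 ± 107), Ly6c1 (1646 ± 160.0), Efhd1 (996 ± 99.4), Dpp4 (325 ± 43.4), Cmah (247 ± 17.5), Akr1c18 (229 ± 23.7), Ackr2 (226 ± 31.9) and Limch1 (135 ± 5.28). Cmah, Akr1c18 and Ackr2 did not differ beyond their spread. In MLCs, Dpp4 came first (1394 ± 64.1 per kb), ahead of Ly6a (147 ± 96.5) and Cd55 (87.1 ± 3.09). Per length, Dpp4 was the highest of the 10 in MLCs and came 6 in FIPs.

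Ranked by the FIP mean over the next highest population among 10354 genes with a FIP mean of at least 100, Akr1c18 came 1 (34.8-fold), Efhd1 2 (27.0-fold), Ly6c1 3 (25.6-fold) and Ackr2 4 (22.6-fold). Ly6a came 6 (12.2-fold), Cmah 16 (7.71-fold), Limch1 42 (3.67-fold), Cd55 64 (3.07-fold) and Pi16 109 (2.38-fold), and Dpp4, below its MLC level, came 10058. By this measure Dpp4 came last of the 10, although its FIP mean lay 39.1-fold above its APC mean. Akr1c14, not among the 10, came 9 (10.3-fold). These ranks use the values that chose the genes and are a description.

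Ly6c1, Ly6a, Efhd1, Ackr2 and Akr1c18 moved most alike across the 16 libraries, with pairwise Pearson correlations of log2(value + 1) from 0.906 to 0.983. The libraries fall into 4 populations and share the choice of genes by FIP level, so these values describe the order of the population means. Limch1 and Cmah correlated at 0.876 with each other, and Dpp4 was nearer to Limch1 (0.807) than to Pi16 (-0.341) or Cd55 (-0.457). To show what stands before the start of 3 genes of the first set, the 250 bases upstream are printed for Efhd1, Ackr2 and Akr1c18 (RefSeq, GRCm38.p6, 5′ to 3′ along the gene), with capitals at matches to the GC box GGGCGG, which reads CCGCCC on the other strand, to CCAAT or to the TATA box TATAAA on either strand; overlapping matches run together. The windows are chr1:87264103-87264352 (plus strand), chr9:121898105-121898354 (plus strand) and chr13:4150647-4150896 (minus strand).
Efhd1: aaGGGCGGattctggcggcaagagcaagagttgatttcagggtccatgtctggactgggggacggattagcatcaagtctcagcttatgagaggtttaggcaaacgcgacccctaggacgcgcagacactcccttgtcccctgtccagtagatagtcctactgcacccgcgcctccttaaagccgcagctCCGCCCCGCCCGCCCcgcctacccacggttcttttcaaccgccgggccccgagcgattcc
Ackr2: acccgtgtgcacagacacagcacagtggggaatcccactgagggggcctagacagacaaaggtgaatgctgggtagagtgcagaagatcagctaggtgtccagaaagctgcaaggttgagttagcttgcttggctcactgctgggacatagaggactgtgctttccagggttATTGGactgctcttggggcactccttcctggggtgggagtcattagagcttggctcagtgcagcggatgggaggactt
Akr1c18: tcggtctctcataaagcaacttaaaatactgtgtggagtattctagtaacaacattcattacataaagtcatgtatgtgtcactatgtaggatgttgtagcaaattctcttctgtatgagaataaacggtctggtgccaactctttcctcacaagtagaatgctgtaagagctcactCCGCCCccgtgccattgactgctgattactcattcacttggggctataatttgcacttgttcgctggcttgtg

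Efhd1 held 4 GC box matches and 19 CpG dinucleotides, Akr1c18 held 1 GC box match and 5 CpG, and Ackr2 held 1 CCAAT match and 2 CpG, against a median of 6 CpG over 32851 windows of 250 bases. These 3 genes had no searched motif in common. Windows were found for 9 of the 10 genes, 13 windows in all. A GC box match stood in 4 of the 13 windows (32.7% of all windows), CCAAT in 5 (33.8%) and TATAAA in 3 (12.4%). The AP-1 motif TGANTCA (6.75% of all windows) and the STAT motif TTCNNNGAA (7.02%) were in none of the 13, and the TEAD motif GGAATG (12.6%) was in 1, that of Dpp4. Both strands were searched, and a match is a string of letters, not a binding site.

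The genes most like each one over the 16 libraries, by the same correlation among 11504 named genes with a mean of at least 100 in some population, were as follows. For Dpp4 they were Pla2g4a (0.993), Aig1 (0.991), Pdlim1 (0.984). Pla2g4a, cytosolic phospholipase A2, read 1101 in FIPs and 1817 in MLCs on average. Pi16 was most like Akap12 (0.995), Tmem158 (0.993), Pcolce2 (0.990), and Pcolce2, an enhancer of collagen processing, averaged 1089 in FIPs and 663 in SMCs. For Cd55 they were Qpct (0.999), Marcks (0.997), Itgb5 (0.996). Ackr2 was most like Cd248 (0.992), Anpep (0.991), Ddr2 (0.989), and Cd248, a stromal surface glycoprotein, averaged 37392 in FIPs. Ly6c1 was followed by Car8 (0.986), Sirpa (0.985), Serpinb6a (0.983), and Ly6a by Ly6c1 (0.981), Smurf2 (0.973), Niban1 (0.972). Efhd1 was followed by Fam171b (0.989), Fstl1 (0.986), St3gal2 (0.985), Akr1c18 by Serpinb6a (0.980), Fer (0.976), Timp2 (0.970), Limch1 by Stim2 (0.986), Slc25a24 (0.978) and Cmah by Dcbld2 (0.987), Rab32 (0.984), Osbpl3 (0.981). The libraries form 4 populations, so each value mostly compares 4 means.

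The 25 other interstitial progenitor genes were chosen with results of these data known, so their counts are a description and nothing is read from their direction. Of the 25, 21 were called higher in FIPs than in APCs and none lower (median log2 2.25 against 0.01 for all genes), 20 and none against MLCs (2.73), and 19 and 1 against SMCs (1.72), where 5.2%, 12.5% and 4.6% of all tested genes were higher in FIPs and 5.22%, 18.6% and 13.3% lower. edgeR and DESeq2 called 21 and 0 in the first and 20 and 0 in the second, and at an unadjusted p under 0.05 limma gave 24 and 0, and 23 and 1. Fn1 read 560212 ± 23012 in FIPs, 130263 ± 23390.1 in APCs, 102779 ± 6184 in MLCs and 112384 ± 29875 in SMCs, and Fbn1, the microfibril protein fibrillin 1, 320100.0 ± 10120.3, 82152 ± 12833, 19039 ± 338 and 71640.3 ± 10165. Cd248 differed between FIPs and APCs by 1.72 ± 0.066 (log2 ± SE), Axl, a receptor tyrosine kinase, by 1.02 ± 0.058 and Mfap5 by 2.21 ± 0.078. Cd34, a sialomucin of progenitors, was at 0.95 ± 0.070, under 2-fold. The 1 gene called lower in FIPs than in SMCs was Il33, an alarmin cytokine named after its values were seen, at 836 ± 66.7 and 3429 ± 455. Of 18 committed preadipocyte genes 8 were called lower in FIPs than in APCs and none higher. All tested genes gave 5.22% lower and 5.2% higher. edgeR and DESeq2 each called 10 lower and 0 higher, and an unadjusted p under 0.05 in limma gave 14 and 2. Col15a1 read 26856 ± 1759 in FIPs and 112826 ± 8133 in APCs, and Apoe 8391 ± 483 and 43980.4 ± 4183. Other abundant genes of the list differed by less than 2-fold. Their FIPs minus APCs log2 was -0.93 ± 0.16 for Lpl, -0.64 ± 0.066 for Col4a1, -0.55 ± 0.0695 for Col4a2 and 0.04 ± 0.099 for Dlk1. Zfp423, named after its values were seen, was higher in FIPs (614 ± 23.7 against 364 ± 44.4 in APCs), under 2-fold. Of 14 endothelial genes 1 was called higher in FIPs than in APCs and 2 lower, beside the same 5.2% and 5.22%. The 1 was Tek, the angiopoietin receptor, at 7827 ± 401 in FIPs, 1251 ± 117 in SMCs, 719 ± 43.9 in APCs and 36.7 ± 8.16 in MLCs, while Pecam1 and Cdh5 read 87.8 ± 28.7 and 90.9 ± 35.6 in FIPs. Ly6a and Ly6c1 are also endothelial antigens. The endothelial list summed to 7966 to 8884 in FIPs, of which Tek made up 7412 to 8276. Pecam1 read 63.5 to 123 in FIPs and 79.6 to 146 in APCs, while Cdh5 was highest in SMCs (1698 ± 404) and Kdr in MLCs (2485 ± 281). The part of endothelial RNA in the Ly6a and Ly6c1 values was not tested.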

How the data were processed

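Bulk RNA-seq libraries of 4 populations, 4 libraries each, were analysed from 1 table of normalized counts. The authors deposited these values as a normalized signal per gene, and per the submitters' processing notes Trim Galore 0.4.1, HISAT2 2.0.1, featureCounts 1.4.6, DESeq2 1.6.3 and GRCm38/mm10 were used, with no roles given. The columns headed SMLCs were taken as the SMC libraries. In each library 100% of values were whole multiples of 1 step within 0.01, as read counts divided by a size factor would be, which gave the reads quoted. Rows with no symbol (1275) went through the same filter and tests and were left out of the search for alike genes. They held 0.0812% to 0.135% of the values.

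Values were tested as log2(value + 1) with limma 3.58.1 (R 4.3.3) in 1 fit over all 16 libraries without covariates, over 15024 genes that reached 10 in at least 4 libraries. A gene was called at a Benjamini-Hochberg adjusted p under 0.05 and at least 2-fold, and a fold change on this scale understates the change of low genes. The FIP contrasts of the 10 genes were not tested. The limma step was tested on simulated counts for MLCs against SMCs only, with the same spread setting for all genes. The other comparisons and the count tools were not simulated. Alternatives were another pseudocount, filter and scaling, edgeR 4.0.16 and DESeq2 1.42.0 on the recovered reads, a replicate block and leaving out each library; the count tools left out FIPs replicate 1 and APCs replicate 2.

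The 10 genes and the lists were chosen with earlier results of these data known. Named from each list were the 6 genes with the highest mean in any population, close copies of the 10 genes, and for each of the 10 the 3 most alike genes; others are marked in the text as named after their values were seen. Some genes that this rule names are not reported here. How reads matching several genes and strands were counted is not given in the sources used here. Locations and upstream windows come from RefSeq GRCm38.p6, coding sequences from GENCODE M21.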

Additional observations from a re-analysis of the deposited data

Results flagged for a closer look

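In 40 sets of 4 libraries (10 genes in 4 populations), 3 had a highest or lowest library set apart from the other 3 by Dixon's ratio at 95%, a rule that chance meets in about 1 of 20 sets. Dpp4 in FIPs replicate 2 read 1645 normalized counts, against 2139.9 to 2219 in the other FIP libraries. Akr1c18 in APCs replicate 4 read 12.1, against 0.845 to 2.15 in the other APC libraries, on 7 reads. The same library stood apart in Acta2, at 2388 normalized counts. Akr1c18 in MLCs replicate 2 read 1.69 on 2 reads, where the other MLC libraries held 1 read each.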

How the results depend on the processing

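Over 28 alternatives all 10 genes kept their direction between MLCs and SMCs, and 9 of them kept the call in each. Akr1c18 lost it with a pseudocount of 8, at -0.78, since that fold is under the limit; over the alternatives it ran from -2.84 to -0.78 with limma, edgeR and DESeq2 adjusted p from 4.73e-05 to 0.00564. Between MLCs and SMCs only direction and call were scored, while values in contrasts with FIPs were set against their spread. Of 840 such values of the 10 genes, 38 moved by more than it and 0 reversed. Of the 38, 13 moved with equal totals, 12 with quantile scaling, 9 with another pseudocount and 4 with the count tools. With the replicate block the genes called numbered 4211 between MLCs and SMCs against 4185 without it, 1567 against 1566 for FIPs and APCs, 4680 against 4671 for FIPs and MLCs, and 2710 against 2693 for FIPs and SMCs, and the block ended no call of the 10 (Akr1c18 limma adjusted p = 0.00198). The labels do not pair the libraries by number. Deviations were slightly more alike in same-number pairs, with a median correlation of 0.0592 against -0.0189 in other pairs. Of 24 same-number pairs 6 were correlated above 0.1, and of 16 libraries 8 correlated best with one of their own number. Genes higher in FIPs than in APCs made up 49.87% of calls and 32.49% with equal totals; against MLCs 40.16%, 28.59% with equal totals and 49.33% with quantile scaling; against SMCs 25.66%, 17.19% and 45.61%. With equal totals the median log2 difference of all genes was -0.23, -0.35 and -0.22 in these comparisons and 0.15 between MLCs and SMCs, and with quantile scaling it was 0.10 for FIPs minus MLCs, against -0.02 as scaled by the authors. Depth limits Akr1c18, Ackr2 and Efhd1 in MLCs, where 5, 10 and 18 reads were counted in all.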
